A study of Danio rerio with 58 samples.

Results

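Gene expression was followed from 24 to 48 hours post fertilisation (hpf) in zebrafish kept under chronic gamma irradiation at 0.5 mGy/h. The comparison set 3 exposed pools of 48 hpf larvae against 3 exposed pools of 24 hpf embryos, 6 of the 58 samples of the series, chosen by the stage, dose rate and irradiation batch in their labels and not by any measured value. The exposed 24 hpf embryos were replicates 1, 2 and 4 and the exposed 48 hpf larvae were replicates 5, 6 and 7. The reference was the same change in unexposed animals, 2 control samples at 24 hpf (replicates 2 and 3) and 4 at 48 hpf (replicates 5, 6, 7 and 8). The series as a whole covers 3 stages and 3 dose rates. All 12 samples were mRNA of entire embryos of the AB strain from irradiation batch I10, and the labels name no transgene or mutation. Exposed animals received external gamma rays of a caesium source from about 1 hpf, so that 48 hpf larvae differed from 24 hpf embryos both in stage and in the length of the exposure. Stage and length of exposure cannot be told apart in exposed animals alone, and for this the change was also measured in controls. Each sample was a pool of animals from 1 irradiation batch, and p-values measure the spread between such pools and not between repeated irradiations. The embryo samples of batch I10 are not shown in the clustering of samples of the paper. The main results were therefore repeated with 24 hpf samples of batch I32. The 48 hpf samples were still those of batch I10, so that stage and batch then differ together in the change of each condition.

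Between these stages a zebrafish embryo ends the formation of somites, hatches or prepares to hatch, and differentiates most of its organs. Progenitors leave the cell cycle, neurons form synapses, lens fibres fill with crystallins, muscle fibres exchange early for later isoforms of contractile proteins, and pigment cells, cartilage and the gut organs begin to make their own products. Transcription factors of the somite clock and the tailbud, which pattern the trunk in the young embryo, are switched off as the axis is completed.

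Each sample had between 28278920 and 40921276 reads assigned to genes, and levels are given as CPM, the count of a gene scaled to the library's total by edgeR's TMM method. The samples of a stage correlated at 0.985 to 0.995 on the log2 CPM scale, and samples of different stages at 0.924 to 0.961. Control replicate 2 at 24 hpf and control replicate 5 at 48 hpf differed from the other control samples of their stage on sets of genes. The comparison was repeated without both, which leaves 1 control at 24 hpf. At 48 hpf replicate 5 was not always the odd sample. For mmgt1 it had 7.06 CPM, near exposed larvae at 8.22, 8.85 and 7.93 CPM, with control replicates 6, 7 and 8 at 1.05, 1.37 and 0.814 CPM. For pou4f3 replicate 5 stood above all of these, at 1.89 CPM against 0.465 to 0.802 CPM in exposed larvae. Exposed replicates 2 and 4 at 24 hpf had a summed level of 84 cytosolic ribosomal protein genes of 242770 and 245880 CPM, above 156520 CPM in exposed replicate 1 and above 157920 and 174820 CPM in the 2 controls. The label of entire embryos was checked against 39 marker names, of which 32 were tested. The 38 genes that they named had counts in every exposed 48 hpf sample, and 21 of them were called higher, 2 lower and 15 neither. The neutrophil and macrophage markers mpx and mpeg1.1 were among the 7 names not tested, and lyz, a neutrophil enzyme, stayed low at 0.119 to 0.321 CPM in exposed 48 hpf larvae. In pools of whole animals, fewer cells of a type and less RNA per cell cannot be told apart.

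From 24 to 48 hpf under 0.5 mGy/h, 5372 of 20706 genes tested (25.9%) were differentially expressed (DEG), 3466 higher at 48 hpf (16.7%) and 1906 lower (9.21%). They had to differ by 1.5-fold or more, with an adjusted p below 0.01 in edgeR's quasi-likelihood test. An unadjusted p under 0.05 was reached by 28.2% of the genes with a rise and 24.8% with a fall, and in 29.1% every exposed sample at 48 hpf lay above every one at 24 hpf. A change of at least 4-fold was found for 1101 DEG, 937 rises and 164 falls. The median change over all genes tested was 0.02 on the log2 scale, and the median absolute change of DEG was 1.17. A test against a fold change of 1.5 itself called 2535 genes. Among the gene lists, calls were mostly rises for the lens (49 of 54 genes), neurons and the synapse (58 of 78), cartilage, bone and collagen (39 of 69) and the sarcomere (41 of 77). They were mostly falls for DNA replication (51 of 63), mitosis (30 of 68), the somite clock and tailbud (18 of 39) and regulators of myogenesis (12 of 26).

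Among DEG with a symbol, a mean log2 CPM of at least 2 and no overlap between the stages, the largest rise was that of ampd1, the AMP deaminase of skeletal muscle. Its level was 0.400, 0.431 and 0.312 CPM in the 3 exposed samples at 24 hpf and 128, 151 and 133 CPM at 48 hpf, against 0.432 and 0.197 CPM and 189, 218, 161 and 212 CPM in controls. All exposed samples at 48 hpf thus lay far above those at 24 hpf. The change was 8.47 ± 0.20 on the log2 scale (approximate SE from the edgeR test, n = 3 against 3). This was a 355-fold rise, with an adjusted p of 8.95e-14 (edgeR). The level of gvin1l2, a gene named for a very large GTPase, went from 0.0922, 0.0663 and 0.243 to 39.9, 37.96 and 44.2 CPM, a 302-fold rise. Among the 12 largest rises so chosen, 5 were gamma crystallin genes of the crygm2d family (crygm2d15, crygm2d2, crygm2d4, crygm2d14 and crygm2d7), structural proteins of the lens, with log2 changes between 5.44 and 7.34. These copies are near-identical, and because reads that map to several places were not counted their single values are uncertain. Muscle genes were tnni2b.2, a fast troponin I, from 1.17, 1.16 and 1.15 to 63.4, 69.3 and 58.2 CPM, igfn1.3, an immunoglobulin-like protein of muscle, from 0.584, 0.696 and 0.312 to 20.7, 20.9 and 23.7 CPM, and ankrd1b, a stress-responsive ankyrin repeat protein of muscle, from 1.17, 0.630 and 0.521 to 29.8, 28.2 and 31.3 CPM. The gene fkbp5 encodes an immunophilin that binds the glucocorticoid receptor complex and is a known target of that receptor. Its level was 1.23, 2.52 and 1.67 CPM at 24 hpf and 93.2, 87.8 and 93.6 CPM at 48 hpf, a 50.8-fold rise. Every exposed sample at 48 hpf was above the controls of that stage at 53.1, 43.3, 73.8 and 85.8 CPM, as was so for 7.08% of all genes. The gene rose 37.2-fold in controls, and the difference of the 2 changes, 0.45 ± 0.40 (SE), was not called (adjusted p = 0.73, edgeR). The remaining gene, zgc:136930, went from 3.41, 4.44 and 3.44 to 165, 198 and 154 CPM.

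Under the same limits, the largest fall was that of si:dkey-239j18.2, from 175, 228 and 198 CPM to 1.14, 3.65 and 3.62 CPM, a 69.9-fold fall with a log2 change of -6.13 ± 0.40 (SE, n = 3 against 3, adjusted p = 5.13e-09, edgeR). Next came he1.3, a hatching enzyme that digests the chorion, which went from 24.4, 24.8 and 33.5 to 0.536, 1.08 and 0.712 CPM and fell 34.8-fold. Muscle was represented as well. Myomaker (mymk), the membrane protein that fuses myoblasts, had 23.4, 26.5 and 25.9 CPM at 24 hpf and 1.47, 1.96 and 3.32 CPM at 48 hpf. The troponins tnnt2c and tnni2 (ENSDARG00000035958) fell 12.6-fold and 10.95-fold, the latter from 667, 689 and 815 to 51.8, 77.5 and 68.8 CPM. Enzymes among the 12 were cyp4t8, a cytochrome P450 (26.0-fold lower), uox, the urate oxidase (10.6-fold lower), and ctsll, a cathepsin L-like protease (10.3-fold lower). At 24 hpf uox had 11.3, 17.6 and 13.01 CPM in exposed embryos, with control replicate 3 among them at 15.5 CPM and control replicate 2 above all at 47.2 CPM. The other members, wu:fc23c09, zgc:174153, si:dkey-26g8.5 and si:dkey-269i1.4, had log2 changes between -4.94 and -3.25. None of these 24 genes overlapped between the stages in exposed samples, as the choice required, and all 24 were called in the same direction in controls.

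**Figure D1:**
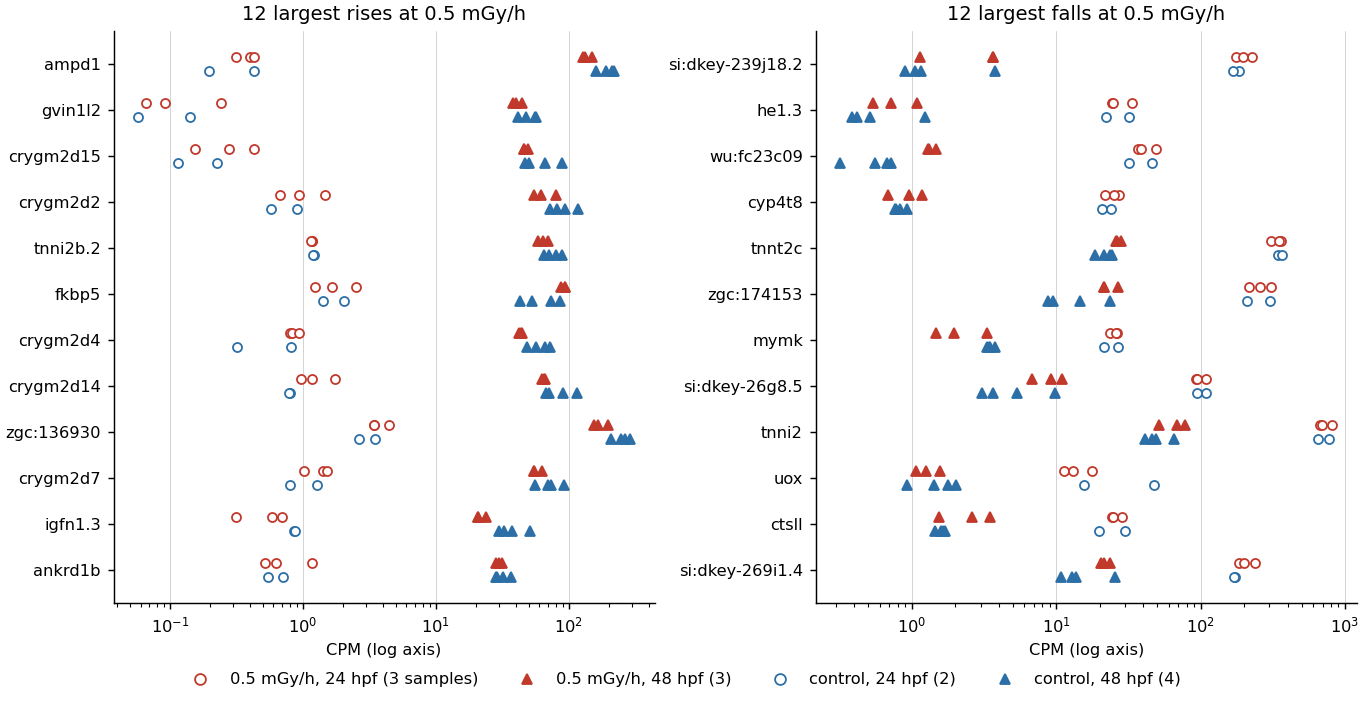
CPM on a log axis of the 12 genes with the largest rise (left) and the 12 with the largest fall (right) under the limits given from 24 to 48 hpf at 0.5 mGy/h, with open circles for 24 hpf and filled triangles for 48 hpf, red for exposed samples and blue for controls. For every gene the triangles and circles form separate clusters in both conditions, as for ampd1 with 0.312 to 0.431 CPM at 24 hpf and 128 to 151 CPM at 48 hpf in exposed samples.

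Of 78 genes of neurons and the synapse tested, 58 were higher at 48 hpf and none lower (DESeq2 also called 0 lower, and 0 had an unadjusted p under 0.05), with a median log2 change of 1.36 beside 0.02 over all genes tested. Their summed level was 1514, 1480.0 and 1583 CPM in the 3 samples at 24 hpf and 3217, 3138 and 3298 CPM at 48 hpf. The RNA-binding protein elavl4, which marks post-mitotic neurons, went from 26.4, 14.95 and 17.4 to 85.2, 68.9 and 98.4 CPM, a 4.29-fold rise, and snap25a, a protein of synaptic vesicle fusion, from a range of 29.0 to 35.1 CPM at 24 hpf to one of 62.7 to 69.1 CPM at 48 hpf. The vesicular glutamate transporter slc17a7 (ENSDARG00000090106) had no count in any exposed sample at 24 hpf and 0.465, 0.321 and 0.564 CPM at 48 hpf, at least 13.7-fold higher against a floor of 3 counts over the group.

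Receptors and channels followed, with 36 of 75 higher, 3 lower and a median of 1.04. The NMDA receptor subunit grin1b rose 11.9-fold and the glycine receptor subunit glra1 7.59-fold. The largest falls belonged to the acetylcholine receptor of muscle. Its gamma subunit chrng, which is the embryonic one, went from 28.8, 35.0 and 32.2 to 5.01, 5.32 and 3.83 CPM and fell 6.78-fold, and its delta subunit chrnd fell 1.92-fold. Among proneural factors, 27 of 52 were higher and 1 was lower, the median being 0.88. The factor atoh7, required for retinal ganglion cells, went from 0.892, 0.630 and 0.763 to 16.9, 14.6 and 16.3 CPM, a 20.8-fold rise, and pou4f2, which acts after it in the same cells, from 1.91, 1.52 and 1.98 to 11.2, 11.2 and 11.5 CPM. The only fall was that of olig4 (1.63-fold), whose call was lost on leaving out any of 5 of the 6 exposed samples (adjusted p up to 0.059 without replicate 4 at 24 hpf, edgeR). Neural progenitor and Notch genes moved both ways, 8 of 68 higher and 18 lower, beside 16.7% and 9.21% of all genes. Their median was -0.18. The progenitor factor sox19a fell from 74.4, 79.1 and 75.1 to 35.5, 30.7 and 29.95 CPM and her2 fell 2.73-fold, whereas vsx1, a factor of retinal bipolar cells, rose 7.35-fold and hes2.2 3.87-fold. The her4 genes, targets of Notch that hold neural progenitors back from differentiation, were not called: her4.4 had a log2 change of 0.12 ± 0.16, and the 2 identifiers of her4.2 had -0.26 (ENSDARG00000094426) and -0.25 (ENSDARG00000056729), copies whose reads can be split uncertainly. Of 34 genes of glia and myelin, 13 were higher and 5 lower. Among them slc1a3, the glutamate transporter of glia, rose from 2.86, 3.35 and 2.67 to 26.5, 26.6 and 30.01 CPM, and egr2b, a factor of the hindbrain and of Schwann cells, fell 6.15-fold. Neither pax6b (-0.05) nor cux1b (-0.40) was called.

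In the eye, the lens list had the largest median of the 38 lists. Of its 54 tested genes 49 were higher and 1 lower, with a median log2 change of 3.87, or 3.37 when 2 genes without counts at 24 hpf were set to their lower bounds. The summed level was 838, 1097 and 1193 CPM at 24 hpf and 7210.0, 7552 and 7758 CPM at 48 hpf. The chaperone alpha crystallin cryaa went from a range of 0.243 to 0.564 CPM at 24 hpf to one of 14.3 to 15.13 CPM at 48 hpf and the beta crystallin crybb1 from a range of 132 to 198 CPM at 24 hpf to one of 789.5 to 895 CPM at 48 hpf. Lengsin (lgsn), a glutamine synthetase-like protein of lens fibres, had 0.0307, 0.0332 and 0.0347 CPM, 3 counts in all, at 24 hpf and 11.1, 8.91 and 10.6 CPM at 48 hpf. The 1 lens gene that fell was crybb3, from 1.38, 1.79 and 1.74 to 0.429, 0.351 and 0.208 CPM. Photoreceptor genes were called higher in 17 of 44 cases and lower in 2 cases, with a median of 1.24. Rhodopsin (rho, ENSDARG00000002193) had 0.0615, 0.232 and 0.0694 CPM at 24 hpf and 3.75, 5.90 and 4.66 CPM at 48 hpf. Another rho identifier (ENSDARG00000111860) rose less, from a range of 3.04 to 4.41 CPM to one of 6.80 to 8.37 CPM, a log2 change of 0.96. The subunit pde6c of the cone phosphodiesterase, which breaks down cyclic GMP in the light response, fell 2.24-fold and rcvrnb, a recoverin, 1.85-fold. The call of pde6c was lost on leaving out any of 3 of the exposed samples (adjusted p up to 0.027 without replicate 2 at 24 hpf, edgeR).

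Of 77 genes of the sarcomere and of calcium release 41 were higher and 6 lower, with a median of 0.94. The calcium pump atp2a1l, which refills the sarcoplasmic reticulum, went from 22.1, 29.2 and 22.5 to 601, 607 and 578 CPM, a 24.2-fold rise, and the creatine kinase ckma from a range of 1318 to 2045 CPM at 24 hpf to one of 4029 to 4904 CPM at 48 hpf. Regulators of myogenesis fell in 12 of 26 cases and rose in 3, with a median of -0.60. Myogenin (myog), which starts the differentiation of muscle cells, went from 61.7, 94.2 and 88.3 to 17.4, 20.05 and 17.01 CPM and fell 4.48-fold, while the myosin chaperone smyd1 rose from 93.4, 103 and 118 to 317, 338 and 311 CPM. Meox1, a factor of the somite, fell 2.25-fold. Heart genes showed no common direction, with 6 of 33 higher and 7 lower, beside 16.7% and 9.21% of all genes. The natriuretic peptides nppa and nppb rose 7.17-fold and 11.4-fold, and the cardiac factor nkx2.7 fell 2.52-fold. For gata6, a factor of heart and endoderm, the change of -0.12 ± 0.12 was not called.

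Genes of the somite clock and the tailbud were lower in 18 of 39 cases and higher in 6, with a median of -0.39 in exposed animals and -1.30 in controls. With 24 hpf samples of batch I32, where stage and batch differ together, these medians were -1.06 and -0.95. The largest falls were those of mespbb and mespab, genes of the forming somite, which had no count in any exposed sample at 48 hpf. For mespbb this was a fall from 0.646, 1.43 and 0.416 CPM, at least 26.5-fold, and for mespab from 0.799, 0.398 and 0.729 CPM, at least 20.5-fold. The T-box factor tbx16 of the tailbud went from 2.83, 2.85 and 2.53 to 0.572, 0.263 and 0.742 CPM and fell 5.21-fold, and the ventral factor vox 2.99-fold. In contrast lef1, a mediator of Wnt signalling, rose from 17.3, 20.2 and 18.9 to 41.4, 38.05 and 41.0 CPM. Hox genes, which set position along the axis, had 2 of 48 higher (hoxc4 and hoxc5) and 7 lower, beside 16.7% and 9.21% of all genes, hoxa11 by 2.59-fold and hoxb1a by 2.59-fold being the largest falls. The rise of hoxc5 was not called without replicate 2 at 24 hpf (adjusted p = 0.015, edgeR) and without 3 other samples.

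Of 63 genes of DNA replication 51 were lower and none higher (DESeq2 called 0 higher, and 0 rises had an unadjusted p under 0.05), with a median of -0.78, and their summed level went from 8356, 10630.0 and 10275 CPM to 5481, 5857 and 5241 CPM. Geminin (gmnn), which blocks a second round of replication, fell from 13.6, 12.1 and 11.6 to 3.86, 4.76 and 6.06 CPM, and gins1, a subunit of the replicative helicase, 2.59-fold. Mitosis genes were lower in 30 of 68 cases and higher in none (0 by DESeq2, 0 at an unadjusted p under 0.05), the median being -0.52. The securin pttg1, which guards the separation of sister chromatids, fell 2.99-fold and prc1 (ENSDARG00000100918), which bundles the midzone of the spindle, 2.14-fold. Genes of DNA repair and damage signalling were lower in 33 of 87 cases with none higher (0 by DESeq2, 0 at an unadjusted p under 0.05), and their median was -0.49. The checkpoint clamp subunit rad9a fell from 4.55, 6.30 and 4.96 to 2.47, 2.22 and 2.405 CPM, and palb2, the partner of brca2, 2.15-fold, the latter not called on leaving out any of 5 exposed samples (adjusted p up to 0.038 without replicate 5 at 48 hpf, edgeR). The p53 list had 6 of 50 genes higher and 2 lower, beside 16.7% and 9.21% of all genes, with a median of 0.18. Its 2 falls were mdm2, the ligase that degrades p53, from 15.7, 13.3 and 13.4 to 8.62, 9.67 and 8.79 CPM, and the stress gene gadd45bb (1.53-fold). The largest rises were those of the factor foxo3b, from 21.0, 19.7 and 18.2 to 51.3, 44.1 and 52.0 CPM, and of the glycolysis regulator tigara, from 0.707, 0.464 and 0.694 to 1.68, 1.26 and 1.19 CPM. Of these 4, only foxo3b kept its call on leaving out each exposed sample in turn. Mdm2 missed it without replicate 1 at 24 hpf, where its change of -0.56 was below the 1.5-fold limit, and without replicate 2 at 24 hpf the adjusted p of gadd45bb was 0.039 and that of tigara 0.032 (edgeR). Germ cell genes were lower in 3 of 15 cases, beside 9.21% of all genes. Among them nanos3, which germ cells need to survive, fell 1.95-fold.

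Of 41 genes of red blood cells and heme 13 were higher and 12 lower. The erythroid heme enzyme alas2 rose from a range of 33.4 to 40.3 CPM at 24 hpf to one of 74.8 to 81.5 CPM at 48 hpf and the embryonic globin hbe1 (ENSDARG00000113599), one of several close copies, from 125, 184 and 189 to 400.1, 442 and 400.2 CPM, whereas the later heme enzymes urod and cpox fell 2.80-fold and 2.76-fold. The blood and endothelial factor tal1 fell from 29.4, 34.0 and 30.3 to 18.3, 20.2 and 17.5 CPM. Vessel genes were higher in 6 and lower in 4 of 39 cases, 25.6% called beside 25.9% of all genes. Etv2, which starts the vascular lineage, fell 2.64-fold, and lyve1a, a receptor of lymphatic vessels, rose from 0.123, 0.166 and 0.104 to 1.57, 1.55 and 2.17 CPM. Among 40 genes of neutrophils and macrophages 13 were higher and 1 lower, with mmp13a, a collagenase, from 0.0922, 0.166 and 0.0347 to 1.22, 1.52 and 1.57 CPM and the chemokine cxcl8a from 0.154, 0.133 and 0.0347 to 1.07, 0.672 and 1.25 CPM. The 1 fall was that of ctss2.1, a cathepsin, from 234, 291 and 234 to 67.8, 83.0 and 61.6 CPM.

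Genes of cartilage, bone and collagen were higher in 39 of 69 cases and lower in 5, with a median of 0.80. The collagen col10a1 (ENSDARG00000054753) of hypertrophic cartilage and bone had 0.0307, 0.0332 and 0.0694 CPM at 24 hpf and 20.1, 25.0 and 19.5 CPM at 48 hpf, a rise of 8.83 ± 0.40 on the log2 scale (SE) from 4 counts in all, and stood at 65.7, 70.4, 41.3 and 46.5 CPM in controls at 48 hpf. The cartilage matrix protein matn3a rose from 2.28, 1.69 and 3.12 to 69.1, 66.1 and 80.9 CPM, and matn1, of the same family, had 0.536 to 2.51 CPM in exposed and 3.996 to 11.6 CPM in control larvae at 48 hpf. Of 41 genes of pigment cells 18 were higher and 2 lower, with a median of 0.61. The melanin enzyme dct rose from a range of 87.5 to 110.2 CPM at 24 hpf to one of 211 to 236 CPM at 48 hpf and the pigment cell glycoprotein gpnmb 6.43-fold, while tfec, a factor of iridophores, fell 2.305-fold. Epidermis and ionocyte genes moved both ways, 15 of 64 higher and 9 lower, beside 16.7% and 9.21% of all genes. Transporters of ionocytes were the largest rises, slc12a10.2, a chloride cotransporter, from 0.246, 0.133 and 0.0694 to 5.86, 4.53 and 5.67 CPM and the ammonia transporter rhcg (ENSDARG00000003203) from 0.123, 0.298 and 0.174 to 5.26, 7.86 and 6.59 CPM. Keratins were the largest falls, krt92 from 513, 826 and 663 to 74.3, 104 and 82.4 CPM and krt93 from 0.400, 0.298 and 0.208 CPM to no count, at least 9.65-fold. In the hatching gland list 6 of 11 genes were lower and 2 higher, with he1.1, a hatching enzyme, from a range of 665 to 904 CPM at 24 hpf to one of 190.5 to 243 CPM at 48 hpf and the cathepsin ctslb from 69.4, 86.7 and 73.5 to 7.54, 9.09 and 8.49 CPM.

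In the list of liver and blood proteins 20 of 66 were higher and 3 lower, beside 16.7% and 9.21% of all genes. The drug-metabolising cyp3a65 rose 5.86-fold and the coagulation factor f9 4.54-fold. Pancreas and gut genes were higher in 17 and lower in 4 of 47 cases. The digestive carboxypeptidase cpa1 (ENSDARG00000021339) went from 0.430, 0.729 and 0.729 to 6.97, 8.36 and 7.57 CPM and glucagon (gcga) from 1.08, 0.928 and 1.28 to 5.61, 5.26 and 5.94 CPM. In the pronephros, the embryonic kidney, 9 of 35 genes were higher and 5 lower, beside 16.7% and 9.21% of all genes. The gene stc1 (ENSDARG00000058476), a hormone that limits calcium uptake in fish, rose 11.6-fold, and the salt transporters slc12a3 and slc12a1 fell 2.696-fold and 2.03-fold. Of 43 ear and hair cell genes 12 were higher and 3 lower, beside 16.7% and 9.21% of all genes. Rises included tectb, a protein of the tectorial and otolithic membranes (7.72-fold), and falls the otolith matrix protein oc90 (3.44-fold). Pituitary, hypothalamus and thyroid genes were higher in 18 of 43 cases and lower in 1. Thyrotropin (tshb) and growth hormone (gh1) had no count in exposed embryos at 24 hpf and 0.429, 0.818 and 0.594 CPM and 0.465, 0.234 and 1.04 CPM at 48 hpf, at least 18.7-fold and at least 17.7-fold higher. The fall was that of trh, the hypothalamic hormone above tshb, from 3.81, 4.54 and 4.23 to 2.15, 2.22 and 1.96 CPM.

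For lists of basic cell functions the calls were few. For cytosolic ribosomal proteins 1 of 84 genes was higher and 5 lower, for nuclear genes of oxidative phosphorylation 9 of 93 were higher and 1 lower, and for the proteasome 2 of 43 were lower. Smaller falls were common in 2 of these lists. A fall with an unadjusted p under 0.05 (edgeR) was found for 53 ribosomal and 29 proteasome genes, against 24.8% of all genes. DESeq2 called 14 and 4 lower. The medians were -0.45 and -0.35 in exposed animals and -0.42 and -0.16 in controls. None of the 13 genes of the mitochondrial genome was called by edgeR, DESeq2 called 0 higher and 0 lower, and an unadjusted p under 0.05 was reached by 0 rises and 3 falls. The isoform cox4i1l of cytochrome oxidase was the largest rise of these lists, from 1.97, 2.52 and 2.74 to 22.0, 26.7 and 29.4 CPM, and the ribosomal protein-like rpl7l1 the largest fall, by 2.02-fold. Heat shock proteins and chaperonins moved both ways, 10 of 54 higher and 12 lower, beside 16.7% and 9.21% of all genes. The small heat shock protein hspb1 fell from 193, 281 and 272 to 42.6, 44.2 and 34.4 CPM and the muscle chaperone hsp90aa1.1 4.15-fold, while hspb6 rose 10.02-fold. The inducible hsp70l had 2.28, 1.89 and 1.32 CPM at 24 hpf and 27.9, 11.3 and 4.27 CPM in exposed replicates 5, 6 and 7 at 48 hpf. Its rise was called in exposed animals (adjusted p = 9.45e-05, edgeR), and replicate 5 stood far above replicate 7, which lay within the control range of 5.02, 3.61, 5.98 and 3.89 CPM. Antioxidant and glutathione genes were higher in 14 and lower in 6 of 68 cases, 29.4% called beside 25.9% of all genes. Among them msrb2, a methionine sulfoxide reductase, was 10.1-fold higher and selenoh, a selenoprotein, 2.13-fold lower. The dual oxidase duox, which makes hydrogen peroxide, had 28.8, 29.5 and 28.5 CPM and 25.5, 31.5 and 33.4 CPM and was not called. Of 32 genes of cholesterol synthesis and uptake 7 were higher, 21.9% called beside 25.9% of all genes. Among them the LDL receptor ldlra had 0, 0 and 0.104 CPM at 24 hpf and 1.47, 1.08 and 1.96 CPM at 48 hpf. In the retinoic acid list 7 of 48 genes were higher and 4 lower, 22.9% called beside 25.9% of all genes. The binding protein crabp1 (ENSDARG00000045926) led the rises with 19.5-fold. Among the falls were the retinol-binding rbp7 (11.9-fold) and the retinol dehydrogenase rdh10b (1.54-fold). The fall of rdh10b was not called without replicate 7 at 48 hpf (adjusted p = 0.022, edgeR) or replicate 2 at 24 hpf.

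**Figure D2:**
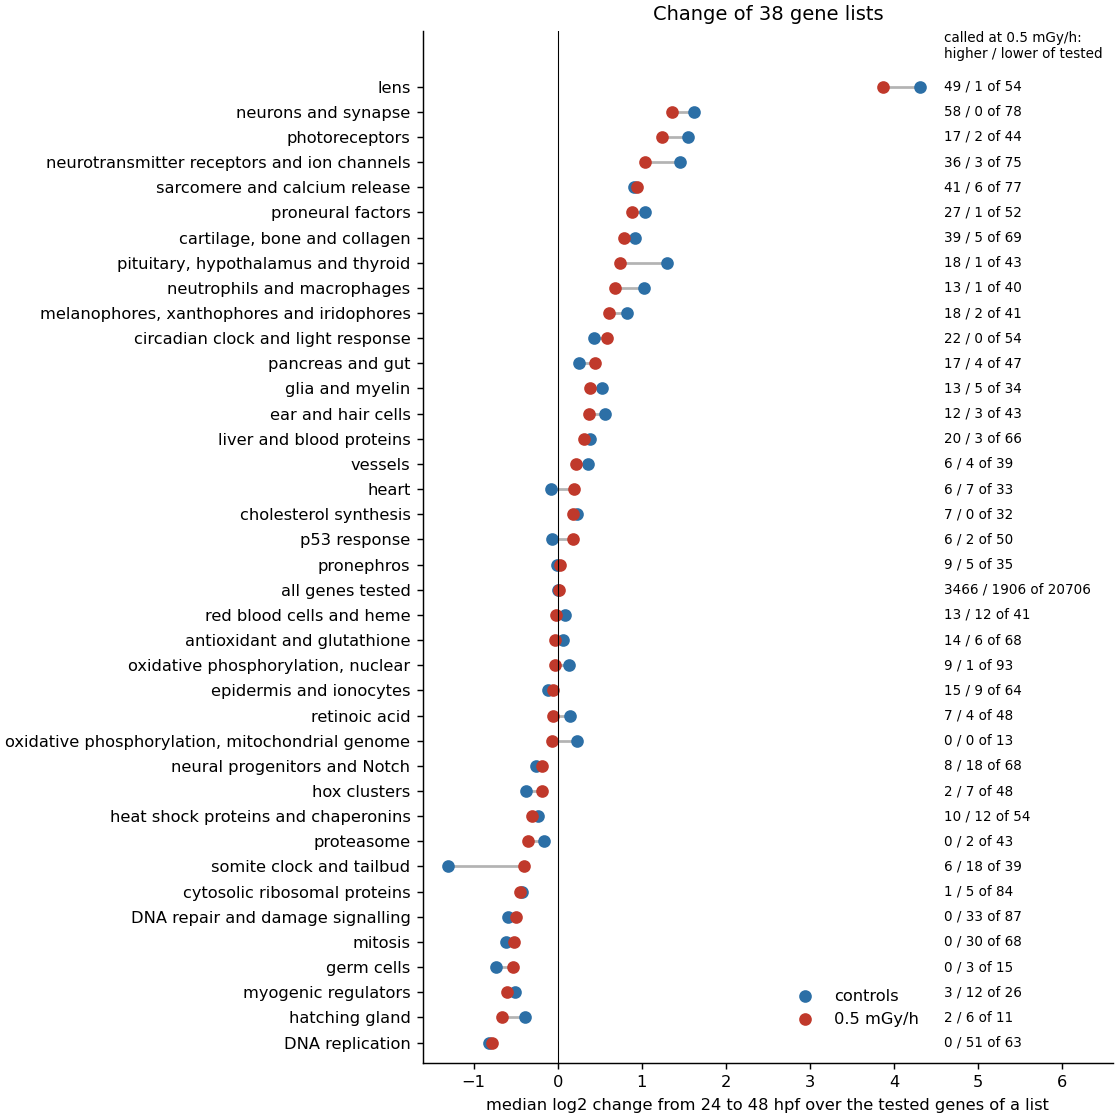
Median log2 change from 24 to 48 hpf over the tested genes of 38 lists and over all genes tested, in exposed animals (red) and in controls (blue), with the numbers of genes called higher and lower at 0.5 mGy/h on the right. The lens stands highest with a median of 3.87 at 0.5 mGy/h and 4.31 in controls, and DNA replication lowest at 0.5 mGy/h with -0.78.

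The second question was which genes changed otherwise in exposed animals than in controls. The 2 changes share no sample. In controls 6826 genes were called (33.0%), 4090 higher (19.8%) and 2736 lower (13.2%). Called in both were 4599 genes, 85.6% of the exposed and 67.4% of the control calls, all in the same direction, 3039 higher and 1560 lower. Of 773 genes called in exposed animals only, 750 had the same sign in controls, and of 2227 called in controls only, 2178 had the same sign in exposed animals. Across the 20706 genes, which are not independent replicates, the 2 changes had a Pearson correlation of 0.887 and a Spearman correlation of 0.860. The median standard error was 0.17 for the change in exposed animals and 0.18 for that in controls, and 0.25 for the difference between them, so that a difference has to be larger than a change to be seen.

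The test of the difference itself called 1 gene of 20706 (0.00483%). It was per1 (ENSDARG00000012499), a period gene of the circadian clock. Without adjustment 2163 genes (10.4%) had a p under 0.05, 969 with a higher (4.68%) and 1194 with a lower change (5.77%) in exposed animals. DESeq2 called 15 genes, 8 higher and 7 lower, per1 among them. Leaving out either control at 24 hpf leaves 1, and the difference of per1 was then 2.80 without replicate 2 and 2.35 without replicate 3. EdgeR called 12 differences without control replicate 5 at 48 hpf and 2 without exposed replicate 7 at 48 hpf, per1 being among them each time. The 12 included mmgt1 and gstt1b, for which control replicates 6, 7 and 8 at 48 hpf lay below every other sample of the batch, control replicate 5 included.

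The genes that DESeq2 called were chosen for description after their values were seen. They included both pck1 and g6pc1 (ENSDARG00000013721), which make glucose from its precursors in liver and kidney. The level of pck1 was 11.3, 11.8 and 13.7 CPM in exposed embryos and 14.0 and 15.8 CPM in controls at 24 hpf. At 48 hpf it was 41.1, 45.2 and 17.96 CPM in exposed larvae, all above the controls at 10.8, 10.55, 14.1 and 14.4 CPM, with replicate 7 well below replicates 5 and 6. Its difference of 1.76 ± 0.35 had an adjusted p of 0.17 in edgeR and of 0.0027 in DESeq2. Glucose-6-phosphatase, g6pc1, stood at 23.7, 30.6 and 22.0 CPM in exposed embryos, below 39.9 and 33.1 CPM in controls, and at 49.0, 48.0 and 41.1 CPM in exposed larvae, above 29.7, 26.4, 28.3 and 32.7 CPM in controls, so that the order of the conditions turned between the stages. With a smaller rise in exposed animals, DESeq2 called col9a1, a collagen of cartilage, at 52.6, 58.0 and 62.0 CPM in exposed and 109.9, 129, 89.2 and 93.4 CPM in control larvae. It also called dnm1 (ENSDARG00000009281), the dynamin of synaptic vesicle recycling, at 13.8, 13.9 and 13.8 CPM and 20.9, 22.3, 17.996 and 20.5 CPM. The edgeR adjusted p of these 2 genes was 0.09 and 0.17. At 48 hpf no exposed sample of either reached the lowest control, as was so for 8.55% of all genes.

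**Figure D3:**
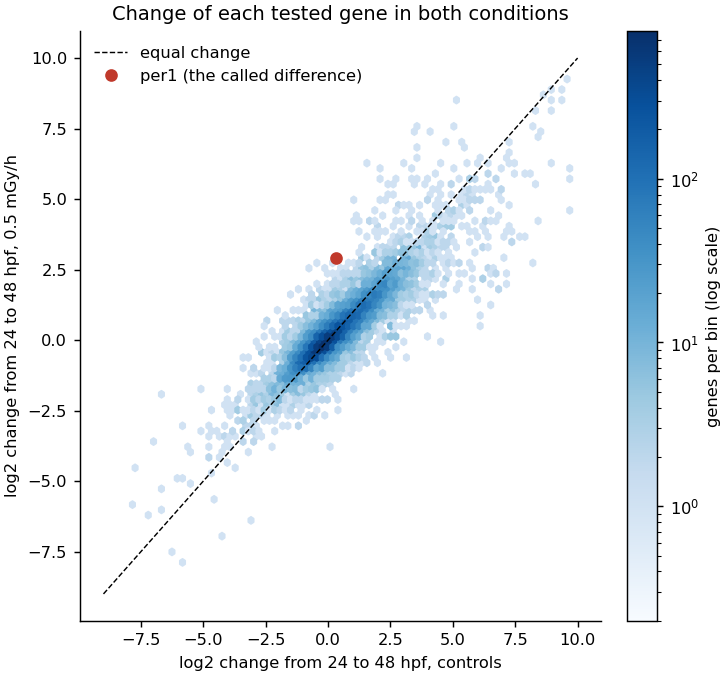
Log2 change of each of the 20706 genes from 24 to 48 hpf in controls (x axis) and at 0.5 mGy/h (y axis), as the number of genes per bin, with a dashed line where both are equal. Most genes lie along the line, and per1, the called difference, lies above it at 0.32 in controls and 2.92 in exposed animals.

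The level of per1 was 9.81, 7.69 and 8.85 CPM in exposed embryos at 24 hpf and 45.9 and 62.3 CPM in the 2 controls of that stage. At 48 hpf it was 67.2, 65.3 and 66.6 CPM in exposed and 61.7, 73.9, 65.4 and 69.5 CPM in control larvae. The exposed embryos at 24 hpf thus stood apart from all other 9 samples, which overlapped between conditions at 48 hpf. From 24 to 48 hpf per1 rose 7.55-fold in exposed animals (2.92 ± 0.13 on the log2 scale, SE), and its change in controls was 0.32 ± 0.12 and not called. The difference of 2.59 ± 0.17 had an adjusted p of 9.50e-07 (edgeR). With 24 hpf samples of batch I32, 6 exposed and 6 control, in place of those of batch I10, the difference was 0.05 with an adjusted p of 0.92 (edgeR), and the change in exposed animals turned to -0.18. That change set embryos of batch I32 against larvae of batch I10. In the 24 hpf samples of batch I32 per1 had 60.9 to 79.3 CPM in exposed embryos and 62.3 to 78.0 CPM in controls, and controls of batch I17 at 24 hpf had 60.8 to 65.7 CPM, on a scale common to all batches on which the exposed embryos of batch I10 had 6.96 to 8.95 CPM. No sample of those batches was thus as low as the 3 exposed embryo samples of batch I10. All 3 came from 1 irradiation batch. The low level was found neither in the controls of that batch nor in the embryos of batch I32 at the same dose rate. Its cause was not tested.

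Clock genes oscillate over the day in zebrafish tissues and respond to light, with the period and cryptochrome proteins as repressors of the clock and bmal and clock as its activators. Of 54 tested genes of the clock and of the light response 22 were higher at 48 hpf in exposed animals, against 16.7% of all genes, and 17 in controls, against 19.8%, 15 of them in both. Of the 54 genes 7 were called higher in exposed animals only and 2 in controls only. Over all 20706 genes tested, 3466 rises were called in exposed animals, 4090 in controls and 3039 in both. At 24 hpf 21 of the 54 had every exposed sample below every control, against 13.6% of all genes tested, and at 48 hpf 10 did, against 8.55%. Above every control were 3 at 24 hpf, against 11.7%, and 1 at 48 hpf, against 7.08%. Among the 3 was bhlhe40, with 94.5 to 102.1 CPM in exposed embryos and 73.0 to 92.7 CPM in controls, on the scale common to all batches. The repressor per3 had 14.3, 12.5 and 12.8 CPM in exposed embryos and 39.2 and 38.2 CPM in controls at 24 hpf. At 48 hpf it had 32.7, 25.2 and 29.8 CPM in exposed and 33.5, 43.6, 46.8 and 39.2 CPM in control larvae, below every control at both stages. Its change was 1.15 ± 0.13 in exposed animals and 0.08 ± 0.13 in controls, a difference of 1.07 ± 0.18 that edgeR did not call (adjusted p = 0.094) and DESeq2 did (adjusted p = 3.07e-04). The repressor per2 had 35.0, 40.1 and 39.5 CPM against 47.0 and 58.4 CPM at 24 hpf, and the light-regulated factor tefa 27.09, 21.1 and 27.103 CPM against 40.5 and 54.9 CPM. The clock-associated repressor ciarta had 13.8, 9.85 and 11.2 CPM in exposed embryos and 20.8 and 22.6 CPM in controls, and cipcb, an inhibitor of clock, 18.7, 14.8 and 13.4 CPM and 29.5 and 30.7 CPM. All 4 were thus lower in each exposed sample than in both controls of batch I10 at 24 hpf, and none of the 4 differences in change was called by edgeR. On the scale common to all batches, the exposed embryos of batch I10 had 19.1 to 24.7 CPM of tefa, within the I32 controls (14.0 to 27.03 CPM), while the I10 controls with 36.6 to 49.5 CPM stood above all other 24 hpf samples shown. For cipcb the I10 controls (26.7 to 27.7 CPM) also stood above the controls of batches I17 (16.9 to 25.5 CPM) and I32 (16.8 to 22.9 CPM), and the exposed embryos of batch I10 had 12.1 to 17.04 CPM. For per2 the exposed embryos of batch I10 (31.965 to 36.3 CPM) lay below those of batch I32 (37.2 to 60.18 CPM) and below the controls of all 3 batches. For per3 they also lay below all of these, at 11.3 to 13.02 CPM. The I10 controls of per3 (34.4 to 35.5 CPM) stood above the I32 controls (21.3 to 27.3 CPM) and below the I17 controls (37.2 to 46.2 CPM). For ciarta the exposed embryos of batch I10 (8.91 to 12.6 CPM) overlapped the I17 controls (11.3 to 16.6 CPM) and lay below the I32 controls (14.3 to 19.8 CPM). The rises of ciarta (0.98), per2 (0.85) and cipcb (0.59) were called in exposed animals, although the change of cipcb was -0.04 with 24 hpf samples of batch I32 and it was not called without replicate 4 at 24 hpf (adjusted p = 0.017, edgeR) or any of 4 other samples. Among the activators, the changes were -0.06 for bmal2, -0.14 for clocka and 0.53 for clock, none of them called. On the common scale, bmal1 (ENSDARG00000006791) had 18.2 to 23.0 CPM in exposed embryos and 23.5 to 26.1 CPM in exposed larvae. Another bmal1 identifier (ENSDARG00000035732) had 3.24 to 5.00 and 4.45 to 5.12 CPM. A second per1 identifier (ENSDARG00000056885) rose in both conditions, 7.78-fold in exposed animals, as did nr1d2a, a repressor of bmal, from 2.31, 2.95 and 2.88 to 20.6, 16.0 and 18.5 CPM, and the melanopsin opn4 (ENSDARG00000007553), a photopigment, 12.4-fold.

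**Figure D4:**
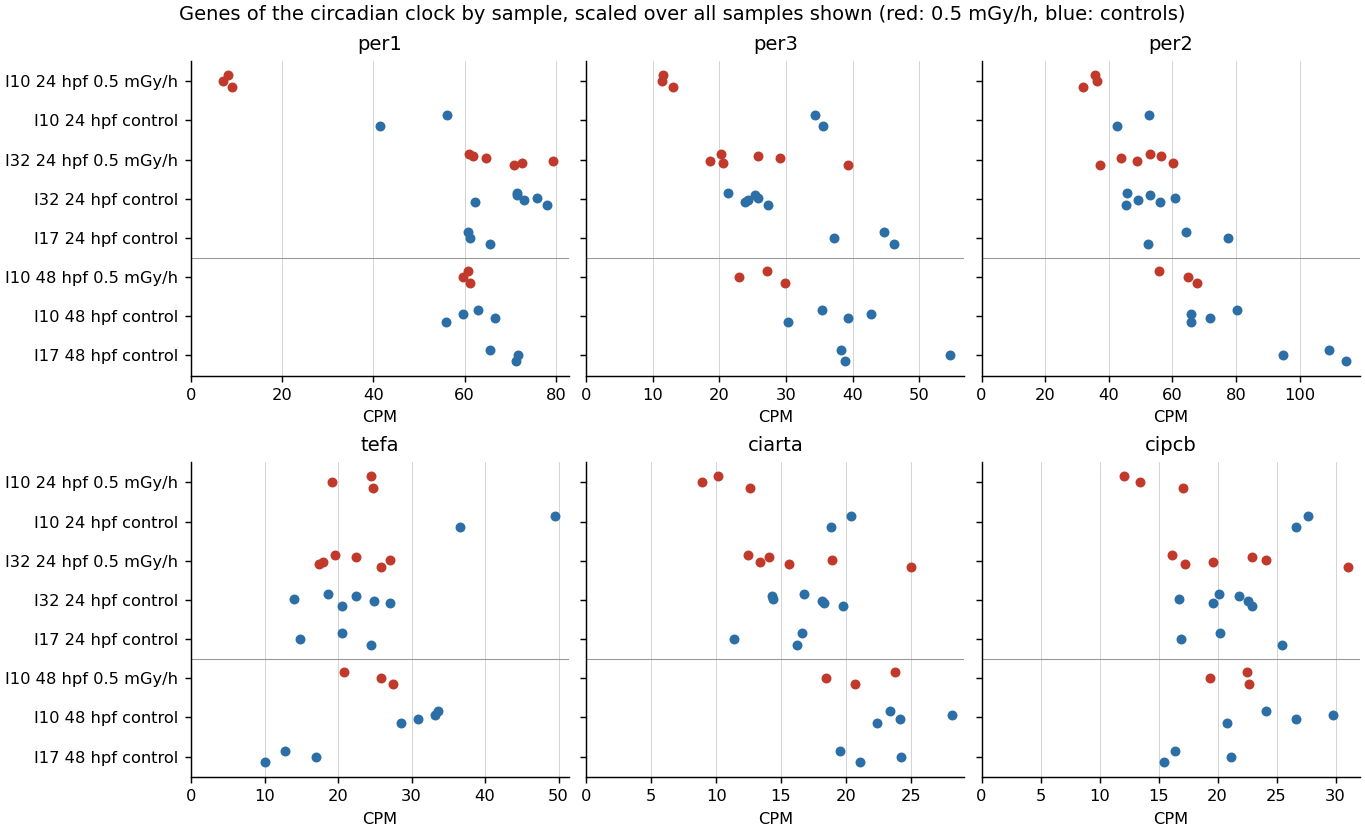
CPM of 6 clock genes in each sample at 24 hpf (upper rows) and 48 hpf (lower rows) of batches I10, I32 and I17, scaled together, with exposed samples in red and controls in blue. In batch I10 at 24 hpf per1 lies at 6.96 to 8.95 CPM in the 3 exposed samples, below every other sample shown.

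Among genes of the lists edgeR called per1 alone for a difference, and DESeq2 also called per3, pck1 and col9a1. The lists are given by their medians. The median change of neuron and synapse genes was 1.36 in exposed animals and 1.62 in controls, with a median difference of -0.33 beside -0.01 over all genes. At 48 hpf 33 of these 78 genes had every exposed sample below every control, against 8.55% of all genes. Their summed level at 48 hpf was 3217, 3138 and 3298 CPM in exposed larvae and 3719, 4403, 3974 and 4112 CPM in controls, without overlap, while at 24 hpf exposed embryos with 1514, 1480.0 and 1583 CPM overlapped controls with 1228 and 1555 CPM. Receptors and channels had a median difference of -0.30. With 24 hpf samples of batch I32 the medians of these lists were -0.27 and -0.31, and with those of them that the study kept -0.18 and -0.08. The median of the neuron list rested in part on control replicate 2 at 24 hpf, being -0.18 without it and -0.49 without control replicate 3. For the lens the median difference was -0.54. Of its 54 genes 18 had an unadjusted p under 0.05, all with the smaller change in exposed animals, against 5.77% of all genes. None was called (lowest adjusted p 0.31, edgeR), and the list holds near-identical crygm2d copies, which are not separate observations. The median of the lens became 0.02 with the 24 hpf samples of batch I32, -0.24 without control replicate 2 at 24 hpf and -0.89 without control replicate 3. Somite clock and tailbud genes had a median difference of 0.33, which was 0.04 with batch I32, and the 13 genes of the mitochondrial genome one of -0.43, which was -0.17. For nuclear genes of oxidative phosphorylation, the sarcomere, pigment cells and the proteasome the sign of the median turned with batch I32, from -0.18, -0.03, -0.23 and -0.20 to 0.33, 0.22, 0.16 and 0.27.

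Single genes with large but uncalled differences included gnb3, a G protein subunit of photoreceptors. Its exposed samples went from 0.215, 0.332 and 0.104 to 0.965, 1.61 and 1.603 CPM, while controls went from 0.0863 and 0.169 to 6.91, 9.37, 4.64 and 5.54 CPM. It rose in both conditions, and the difference of -2.99 ± 0.74 had an adjusted p of 0.31 (edgeR). For eevs, an enzyme of the synthesis of the sunscreen compound gadusol, exposed samples reached 3.47, 4.73 and 2.76 CPM at 48 hpf and controls 10.7, 11.04, 8.51 and 8.51 CPM, from 0.307, 0.431 and 0.382 and 0.173 and 0.365 CPM, a difference of -1.86 ± 0.48. The ganglion cell factor pou4f2 reached 11.2, 11.2 and 11.5 CPM in exposed and 19.4, 26.5, 20.6 and 19.96 CPM in control larvae, a difference of -1.02 ± 0.26 (adjusted p = 0.31, edgeR). At 48 hpf the exposed samples of all 3 genes lay below all controls of the batch, as did those of 8.55% of all genes. Of these, gnb3 and eevs, like duox, were chosen with earlier results of these data known, so that their values are a description only. For duox the changes were 0.06 and -0.45, and its exposed samples lay above the controls at both stages, as did those of 7.08% of all genes at 48 hpf.

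Each sample was also placed on the change between the 24 and 48 hpf controls of batch I17, an axis to which no sample of batch I10 contributed and on which the I17 controls average 0% at 24 hpf and 100% at 48 hpf. Exposed embryos at 24 hpf stood at -7.41%, -9.72% and -7.53% and the 2 controls at -15.9% and -8.68%. Exposed larvae at 48 hpf stood at 64.7%, 62.7% and 65.7% and the 4 controls at 78.4%, 83.0%, 73.1% and 72.7%. At 48 hpf all exposed samples thus lay below all controls, and at 24 hpf 2 of the 3 lay above both controls. The means at 48 hpf were 64.3% ± 1.53 (SD, n = 3) and 76.8% ± 4.87 (SD, n = 4). They differed by -12.4 percentage points, with p = 0.057 in a two-sided exact permutation test, the smallest p that 3 against 4 samples can give. At 24 hpf the difference was 4.09 percentage points (exact permutation test, p = 0.40), where 3 against 2 samples cannot give less than 0.20. The position rose by 72.6 percentage points in exposed animals and by 89.1 in controls. The shortfall at 48 hpf ranged from -13.8 to -10.4 when each sample was left out in turn. Control replicates 6, 7 and 8 at 48 hpf also had more unmapped reads, 4.39% to 5.32%, than control replicate 5 with 2.49% and the exposed samples with 2.48% to 2.85%. The part of this in the positions was not tested.

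**Figure D5:**
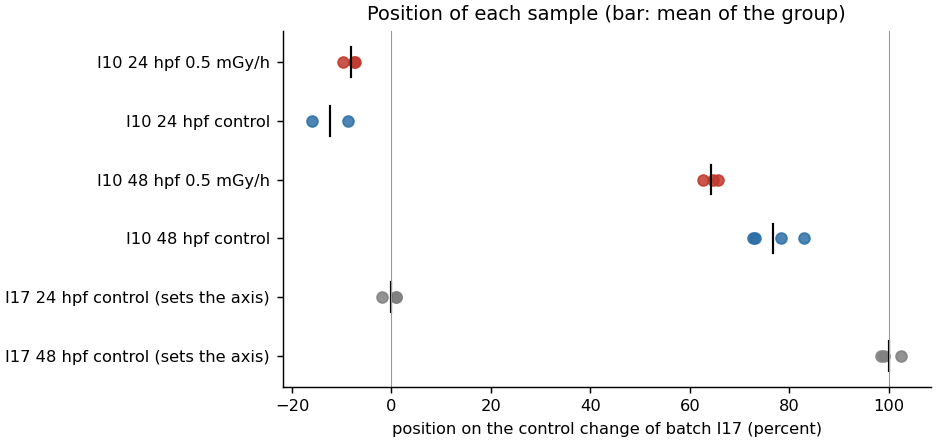
Position of each sample on the change between 24 and 48 hpf controls of batch I17, in percent, for the 4 groups of batch I10 and the 2 groups that set the axis, with a bar at each group's mean. At 48 hpf the exposed samples lie at 62.7% to 65.7% and the controls of the same batch at 72.7% to 83.0%.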

How the data were processed

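RNA sequencing of 6 exposed and 6 control samples of batch I10 was used, with samples of batches I32 and I17 as references. The authors sequenced stranded mRNA libraries and deposited counts per gene made by STAR on GRCz11, with reads that mapped to several places not counted. The fourth column, the strand of the kit, was used, and counts were summed on 32057 gene identifiers, 3062 of them without a symbol. Genes were kept by filterByExpr (minimum count 10, minimum total 15) and fitted in 1 model of 4 group means with edgeR 4.0.16 (quasi-likelihood test, TMM scaling, Benjamini-Hochberg adjustment) in R 4.3.3. Genes were called at a fold change of 1.5 and an adjusted p of 0.01, and list counts and medians carry no test. Each standard error (SE) is the absolute log2 change divided by the square root of the F value of that test. The spread behind it was estimated over all 4 groups together. These values are approximate and can be too small for genes with few counts. The procedure was tested on simulated data with a single dispersion for all genes. There the test of the difference recovered 4% of 1.5-fold, 42% of 2-fold and 100% of 4-fold differences. Average levels and sample correlations used log2(CPM + 0.5). Positions used log2 CPM with a prior count of 2, projected on the I17 control change and tested with scipy 1.17.1. Depth was 28278920 to 40921276 counts per sample, and 69.1% to 73.7% of read pairs were counted on genes.

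Named genes were the 12 largest called rises and falls with a symbol, a mean log2 CPM of at least 2 and no overlap between stages, genes whose change differed, up to 2 rises and 2 falls of each list, and genes named by the study or in earlier results. The genes of the clock paragraphs, the markers and those called by DESeq2 alone were added after their values were seen. Members and lists were chosen with earlier results of these data known. Alternatives were DESeq2 1.42.0, other scaling, filter, strand column, thresholds and 24 hpf samples, the replicate number as a block, and leaving out each sample. Leaving out 2 controls together, and the 24 hpf samples of batch I32 for the change in each condition, were added after seeing the data. Sequences were not used here, and some items are not reported here.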

Additional observations from a re-analysis of the deposited data

Results flagged for a closer look

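The difference between the change in exposed animals and that in controls stood out for per1 (ENSDARG00000012499), with 2.59 on the log2 scale by the test of the difference itself.

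Of 193 named genes looked at, 9 had a control sample at 48 hpf far from the other 3. Dixon's criterion on the gap to the nearest sample over the range was used. Chance gives about 1 in 20, and 9 of 193 is no larger a share, so the genes below are a description only. Control replicate 5 was the sample for 5 of them, with 3.79 CPM for si:dkey-239j18.2, 1.23 CPM for he1.3, 1.89 CPM for pou4f3, a factor of hair cells and neurons, 7.11 CPM for meox1 and 8.63 CPM for hlfa, a clock-controlled factor. Control replicate 6 stood apart for grin1b with 18.2 CPM and for pou4f2 with 26.5 CPM. Control replicate 7 stood apart for chrng with 3.61 CPM and for ciartb with 7.09 CPM.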

How the results depend on the processing

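DESeq2 called 15 differences in place of 1. The test against a fold change of 1.5 called 2535 changes in exposed animals and 3643 in controls, with 79.3% rises in place of 64.5% and 72.3% in place of 59.9%. With the replicate number as a block 2 differences were called (per1 and si:dkey-85k7.7). Whether the numbers pair the samples is not known. Deviations of same-numbered samples from their group means correlated at -0.09 at 24 hpf, and at -0.12, -0.18 and 0.22 at 48 hpf. With 2 controls at 24 hpf the deviations of the controls mirror each other, so these few values cannot decide it. With 24 hpf samples of batch I32, edgeR called 0 differences (1903 genes had an unadjusted p under 0.05), and with those that the study kept 1, pck1. With all 24 hpf samples of batch I32 the change in exposed animals became -0.18 for per1 (ENSDARG00000012499), 0.14 for rpl22l1 and -0.036 for cipcb, and the change of pde6c in controls became 0.41. These changes set embryos of batch I32 against larvae of batch I10, and their cause was not tested. Without control replicate 2 at 24 hpf and control replicate 5 at 48 hpf, which leaves 1 control at 24 hpf, the difference of per1 was 2.75. The ranges that follow include fits with 1 control at 24 hpf. Leaving out each sample in turn gave 4535 to 5782 changes in exposed animals, 4905 to 7049 in controls and 1 to 12 differences, the latter including per1 each time. The exposed minus control position ranged from -13.8 to -10.4 percentage points at 48 hpf and from 0.46 to 7.73 at 24 hpf. Of the named genes, 128 of 176 calls in exposed animals and 129 of 162 in controls held under every alternative run. Depth limits the lowest genes, such as lgsn with 3 counts over the exposed samples at 24 hpf.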
